A study of Mus musculus with 18 samples.

Results

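Batf, Batf3, Irf4, Jun, Junb, Jund, Fosl1 and Fosl2 encode transcription factors that bind DNA in various pairs and complexes in activated T cells. They were taken by symbol from a deposited table of expression values for 12547 genes, in which all 8 were present as 1 row each. The table came from RNA-seq of mouse CD4 T cells that lacked the gene Id3 (labelled KO) or were wild type (WT). Naive cells had been activated through CD3 and CD28 with antibody-coated beads and grown under Th1 conditions, that is, with IL12 and IL2 while IL4 was blocked by an antibody. Each genotype was represented by 3 libraries in each of 3 sets, numbered 3, 5 and 6, which makes 6 groups and 18 libraries. The labels give no strain, age, sex or Id3 allele, leave the meaning of the set numbers unstated, and do not say whether the libraries of a group came from separate mice. The p-values therefore measure only the spread between these libraries, which may be technical. Contrast names in the authors' deposited table attach the number 24 to set 3 and the number 96 to sets 5 and 6, without a unit.

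BATF, BATF3 and the JUN and FOS family proteins are basic leucine zipper (bZIP) factors, which bind DNA only as pairs. JUN proteins pair with FOS family proteins such as FOSL1 and FOSL2 to form AP-1, or with BATF or BATF3. BATF-JUN pairs recruit IRF4, a factor induced by T cell receptor signalling, to composite sites beside AP-1 motifs, and in helper T cells these complexes open chromatin and drive effector and cytokine genes. ID3 is an inhibitor of the E proteins, which bind DNA at E-box motifs.

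The deposited values are on a log2 scale of counts. When the values of each library were sorted, libraries of the same group shared 97.0 to 98.4% of them (within 1e-09), so each group had been put on a common distribution before deposit, which narrows the spread that the tests see. Depth per library is unknown, and the lowest value of a library, between 1.0 and 1.11, was shared by 149 to 350 genes. Id3 lay between 1.0 and 5.63 in the 9 KO libraries and between 8.85 and 10.08 in the 9 WT libraries, so the genotype labels held. All 9 CD4 T cell markers examined, among them Cd3e and Cd4, were measured in every group. The median over all genes of the difference KO minus WT was -0.07 in set 3, 0.39 in set 5 and 0.42 in set 6. Differences are therefore given as deposited and, for sets 5 and 6, also after each library's median had been subtracted (centred), which asks whether a gene differed beyond that general shift.

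The RefSeq promoter sequences of Batf, Irf4, Jun and Junb are shown because these genes stand for the 3 patterns described below: Batf, Irf4, and the Jun family genes that varied together. Each runs from 250 bases before to 50 bases after the annotated start, 5′ to 3′ on the gene's strand, in build GRCm38.p6. Batf lies at chr12:85686470-85686769 (+ strand), Irf4 at chr13:30748983-30749282 (+), Jun at chr4:95052173-95052472 (− strand) and Junb at chr8:84978699-84978998 (−). Capitals mark matches to the motifs searched.
Batf: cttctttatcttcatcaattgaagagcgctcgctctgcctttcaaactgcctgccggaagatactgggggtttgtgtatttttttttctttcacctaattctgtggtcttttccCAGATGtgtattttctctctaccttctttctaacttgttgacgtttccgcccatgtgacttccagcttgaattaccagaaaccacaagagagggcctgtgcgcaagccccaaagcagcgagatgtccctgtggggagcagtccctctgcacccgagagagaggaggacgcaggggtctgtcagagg
Irf4: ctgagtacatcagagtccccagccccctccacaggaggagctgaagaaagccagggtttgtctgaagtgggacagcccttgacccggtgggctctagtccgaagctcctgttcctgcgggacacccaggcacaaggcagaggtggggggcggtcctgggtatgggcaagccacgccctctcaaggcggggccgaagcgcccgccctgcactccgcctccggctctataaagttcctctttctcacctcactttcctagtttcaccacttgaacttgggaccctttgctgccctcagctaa
Jun: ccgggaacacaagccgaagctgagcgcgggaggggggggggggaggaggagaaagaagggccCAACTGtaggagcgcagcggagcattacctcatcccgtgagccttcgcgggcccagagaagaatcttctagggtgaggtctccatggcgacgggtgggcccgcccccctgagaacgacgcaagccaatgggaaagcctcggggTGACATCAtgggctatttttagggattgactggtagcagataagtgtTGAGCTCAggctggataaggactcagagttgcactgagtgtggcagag
Junb: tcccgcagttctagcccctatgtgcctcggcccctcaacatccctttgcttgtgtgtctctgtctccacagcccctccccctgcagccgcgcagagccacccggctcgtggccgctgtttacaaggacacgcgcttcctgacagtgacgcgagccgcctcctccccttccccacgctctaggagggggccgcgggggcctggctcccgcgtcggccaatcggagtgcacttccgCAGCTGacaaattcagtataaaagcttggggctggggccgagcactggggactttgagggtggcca

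Both strands of 7 promoters, all but that of Fosl1, were searched for the AP-1 site TGANTCA, the CRE-like site TGANNTCA, the E protein E-box CAGNTG, where N is any base, and an IRF site of GAAA and GAAA with any 2 bases between. These letter strings were found in 7.81%, 14.1%, 51.4% and 3.44% of 32851 promoters of the same length. Among the 12724 of these that belong to genes measured here, the shares were 5.19%, 10.1%, 44.7% and 3.24%. Counting the start as base 1, the Batf promoter held an E-box, CAGATG, at -136 to -131. The Jun promoter held CRE-like sequences, TGACATCA at -45 to -38 and TGAGCTCA at 3 to 10, and an E-box, CAACTG, at -188 to -183. Junb held the E-box CAGCTG at -16 to -11, and Jund held TGAAATCA, CATCTG and CAGCTG. The Fosl2 promoter held an IRF match, TTTCTTTTTC, at -221 to -212. None of the 4 strings occurred in the windows of Irf4 and Batf3, and TGANTCA occurred in none of the 7. A match is a description of letters, and no binding was measured in these cells.

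**Figure D1:**
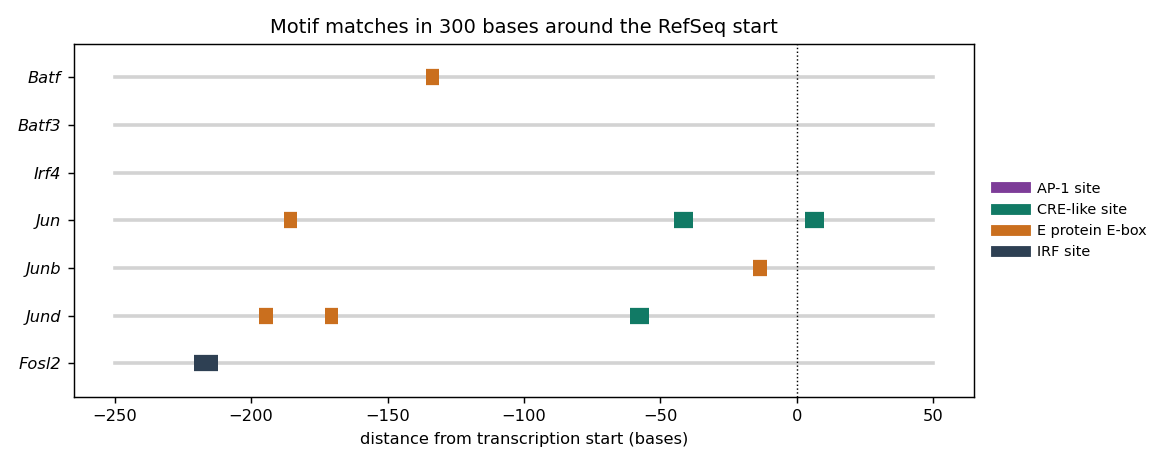
Positions of motif matches along 7 promoters. The x axis is the distance from the transcription start in bases, each grey line is 1 promoter, and coloured blocks are matches. E-box matches lie in Batf, Jun, Junb and Jund, and CRE-like matches in Jun and Jund.

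Comparing KO with WT within each set asks how the loss of Id3 moved these factors. In sets 5 and 6 the KO cells had more RNA of Batf, Irf4, Jun, Junb, Jund and Fosl2 than WT cells, and Batf had the largest difference of the 8, 7.45-fold in set 5 and 7.74-fold in set 6. In set 3 Irf4 and the 3 Jun genes did not pass the test, while Batf, Batf3, Fosl1 and Fosl2 were higher in KO cells. In set 3, 4 of the 8 genes passed the test as higher, where 6.92% of all genes did, and the same number after centring (7.29%). In set 5, 7 passed (50.1% of all genes), and 7 again after centring (24.9%). In set 6, 7 passed (53.9%), and 6 after centring (18.8%). None of the 8 was called lower in KO cells in any set, nor at an unadjusted p under 0.05, where 4.46%, 8.08% and 4.59% of all genes were called lower by limma after adjustment in sets 3, 5 and 6 (3.28%, 24.7% and 18.5% after centring). The median difference of the 8 was 0.52, 1.71 and 1.37 in sets 3, 5 and 6. The 8 genes were chosen with earlier results of these data known, so these counts are a description of them. Averaged over the sets, all 8 were higher in KO cells, where 55.1% of all genes were, and all 8 remained so after centring (25.9%). That test took the libraries of the sets as independent. Between sets 5 and 6, however, deviations of equal replicate numbers from their group means correlated (0.22 to 0.34 in KO, 0.12 to 0.16 in WT cells). Between set 3 and the later sets these correlations were weaker (0.01 to 0.18 in KO, 0.04 to 0.07 in WT cells). KO and WT values did not overlap for 4 of the 8 genes in set 3 (29.9% of all genes), 6 in set 5 (64% of all genes) and 7 in set 6 (65.1%). In set 6 the count was 6 after centring (51.3%).

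**Figure D2:**
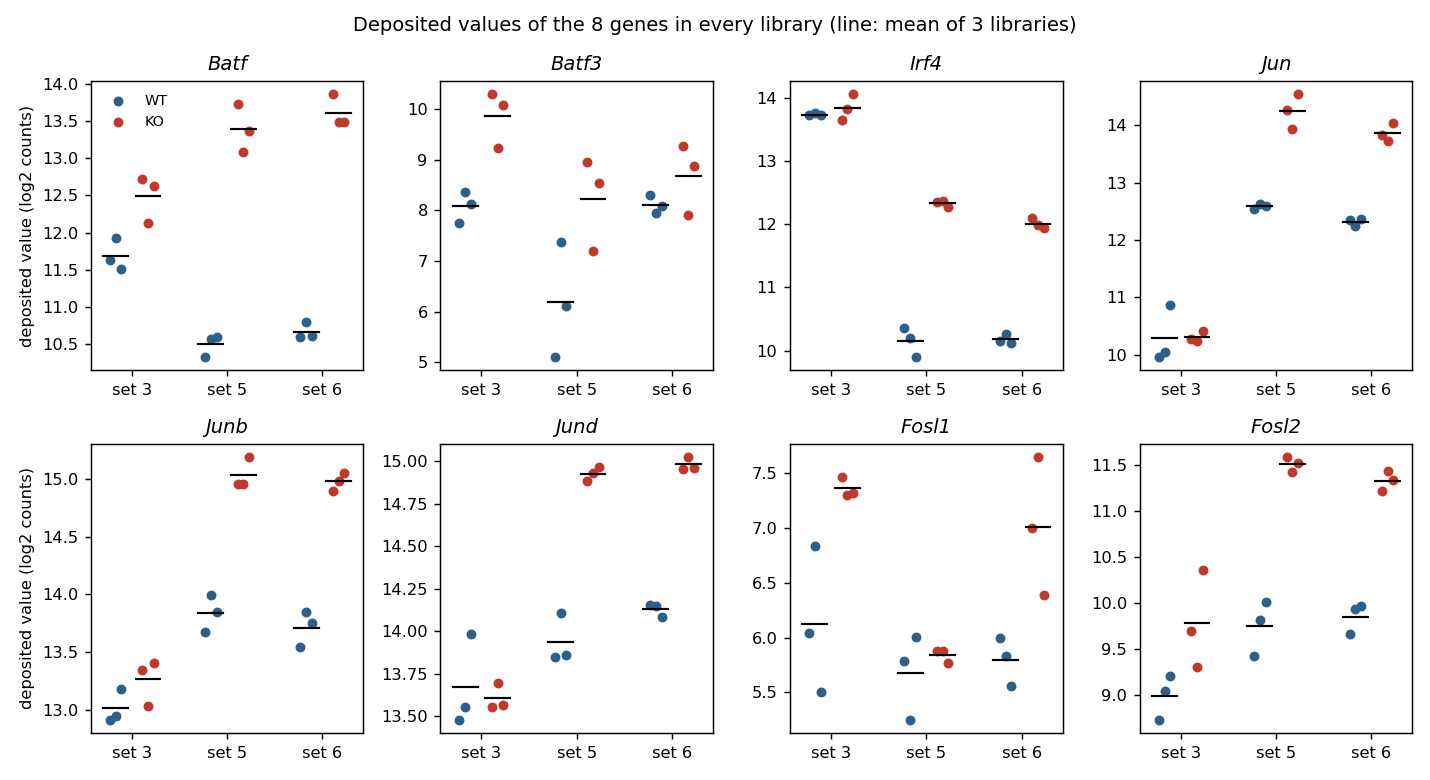
Deposited log2 values of the 8 genes in every library. Each point is 1 library, blue for WT and red for KO, the line is the mean of 3 libraries, and each panel has its own y axis. Batf in KO cells lies above WT in every set, and Irf4 separates by genotype in sets 5 and 6 but not in set 3.

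Batf, the bZIP partner of JUN proteins that T helper cells need for IL17-producing and follicular fates, read 12.73, 12.13 and 12.63 in the KO libraries of set 3 (replicates 1, 2 and 3) and 11.63, 11.92 and 11.52 in WT. In set 5 it read 13.73, 13.08 and 13.37 in KO and 10.32, 10.57 and 10.59 in WT. In set 6 the values were 13.86, 13.49 and 13.49 against 10.59, 10.79 and 10.61. The genotypes did not overlap in any set, and the gap was narrowest in set 3. KO minus WT was 0.81 (SE 0.17, adjusted p = 0.00598) in set 3, 2.90 (SE 0.17, adjusted p = 6.58e-09) in set 5 and 2.95 (SE 0.17, adjusted p = 9.17e-09) in set 6. The centred differences were 2.51 in set 5 and 2.54 in set 6. By the size of the deposited difference Batf ranked 160 of 12547 genes in set 5 and 148 in set 6. The set 3 call held without any 1 of its 6 libraries (adjusted p at most 0.0423) and was lost when a change of more than 1.2-fold was required (adjusted p = 0.0648).

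Batf3, a close relative of Batf that is best known for its role in dendritic cells, was the most variable of the 8. It read 10.29, 9.22 and 10.07 in KO and 7.74, 8.37 and 8.12 in WT libraries of set 3. In set 5 the values were 8.95, 7.20 and 8.53 against 5.10, 7.37 and 6.11, and in set 6 they were 9.26, 7.90 and 8.87 against 8.31, 7.94 and 8.08. KO replicate 2 was the lowest KO library in each set, and it fell within the WT range in set 5 and below it in set 6. KO minus WT was 1.78 (SE 0.51, adjusted p = 0.0347) in set 3 and 2.03 (SE 0.51, adjusted p = 0.00288, centred 1.64) in set 5. In set 6 it was 0.57 (95% interval -0.55 to 1.69, adjusted p = 0.36). The set 3 call was lost on leaving out any 1 of 5 of the 6 libraries, all but KO replicate 2 (adjusted p up to 0.147).

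Irf4, the factor that BATF-JUN pairs recruit, was the highest in set 3 and there did not pass the test between genotypes. It read 13.65, 13.82 and 14.06 in KO and 13.73, 13.76 and 13.72 in WT libraries of set 3, values that overlapped. In set 5 it read 12.35, 12.37 and 12.27 in KO and 10.35, 10.20 and 9.90 in WT, and in set 6 12.10, 11.98 and 11.94 in KO and 10.15, 10.26 and 10.12 in WT. The KO libraries of sets 5 and 6 all lay above all WT libraries of these sets and below all libraries of set 3. The difference was 0.11 (95% interval -0.12 to 0.34, adjusted p = 0.515) in set 3, 2.18 (SE 0.10, adjusted p = 1.24e-09) in set 5 and 1.83 (SE 0.10, adjusted p = 7.43e-09) in set 6. The latter are 4.54-fold and 3.57-fold, and the centred differences were 1.79 and 1.42.

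Jun, the founding AP-1 protein gene and a target of JNK signalling, read 10.27, 10.24 and 10.42 in KO and 9.96, 10.05 and 10.87 in WT libraries of set 3. In set 5 it read 14.27, 13.94 and 14.55 in KO and 12.55, 12.64 and 12.59 in WT, and in set 6 13.83, 13.73 and 14.04 in KO and 12.35, 12.24 and 12.37 in WT. The genotypes overlapped in set 3 and were separate in sets 5 and 6. KO minus WT was 0.02 (95% interval -0.38 to 0.42) in set 3, 1.66 (SE 0.18, adjusted p = 1.36e-06, centred 1.27) in set 5 and 1.55 (SE 0.18, adjusted p = 3.61e-06, centred 1.14) in set 6.

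Junb, which pairs with BATF in helper T cells, read 13.35, 13.03 and 13.41 in KO and 12.91, 12.95 and 13.18 in WT libraries of set 3. The set 5 values were 14.96, 14.95 and 15.19 in KO against 13.67, 13.99 and 13.85 in WT, and those of set 6 were 14.90, 14.99 and 15.05 against 13.54, 13.84 and 13.75. As for Jun, KO and WT libraries overlapped in set 3 only. The difference was 0.25 (adjusted p = 0.166) in set 3, where it passed only without KO replicate 2 (adjusted p = 0.0382). It was 1.2 (SE 0.11, adjusted p = 2.73e-07, centred 0.81) in set 5 and 1.27 (SE 0.11, adjusted p = 2.62e-07, centred 0.85) in set 6.

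Jund, the Jun family gene that many resting cells also express, gave the smallest differences among the genes called in sets 5 and 6. It read 13.56, 13.69 and 13.56 in KO and 13.48, 13.55 and 13.98 in WT libraries of set 3. In set 5 it read 14.88, 14.93 and 14.96 in KO and 13.85, 14.11 and 13.86 in WT, and in set 6 14.96, 15.03 and 14.96 in KO and 14.16, 14.15 and 14.08 in WT. KO libraries were tightly grouped in sets 5 and 6 and stood above every WT library there. KO minus WT was -0.07 (adjusted p = 0.697) in set 3, 0.99 (SE 0.10, adjusted p = 6.05e-07, centred 0.60) in set 5 and 0.85 (SE 0.10, adjusted p = 3.55e-06, centred 0.44) in set 6.

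Fosl2, which encodes a FOS family partner of JUN proteins, read 9.70, 9.30 and 10.36 in KO and 8.73, 9.05 and 9.21 in WT libraries of set 3. In set 5 the values were 11.58, 11.42 and 11.51 in KO and 9.43, 9.82 and 10.01 in WT, and in set 6 they were 11.21, 11.43 and 11.33 against 9.66, 9.93 and 9.96. Every KO library was above every WT library of its set. The difference was 0.79 (SE 0.21, adjusted p = 0.0213) in set 3, 1.75 (SE 0.21, adjusted p = 2.65e-06, centred 1.36) in set 5 and 1.47 (SE 0.21, adjusted p = 1.92e-05, centred 1.06) in set 6. Leaving out WT replicate 1 or either of KO replicates 1 and 3 ended the set 3 call (adjusted p up to 0.0987).

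Fosl1, the other FOS-like gene of the group, had a different pattern. It read 7.46, 7.30 and 7.32 in KO and 6.04, 6.83 and 5.51 in WT libraries of set 3. In set 5 it read 5.87, 5.88 and 5.76 in KO and 5.79, 5.25 and 6.0 in WT, and in set 6 7.0, 7.65 and 6.39 in KO and 6.0, 5.83 and 5.56 in WT. The genotypes were separate in sets 3 and 6 and overlapped in set 5. KO minus WT was 1.23 (SE 0.33, adjusted p = 0.0223) in set 3, 0.16 (adjusted p = 0.7, centred -0.23) in set 5 and 1.21 (SE 0.33, adjusted p = 0.00443) in set 6. The set 6 call was lost after centring (difference 0.80, adjusted p = 0.0636), and the set 3 call was lost without KO replicate 1, KO replicate 3, WT replicate 1 or WT replicate 3 (adjusted p up to 0.0998).

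**Figure D3:**
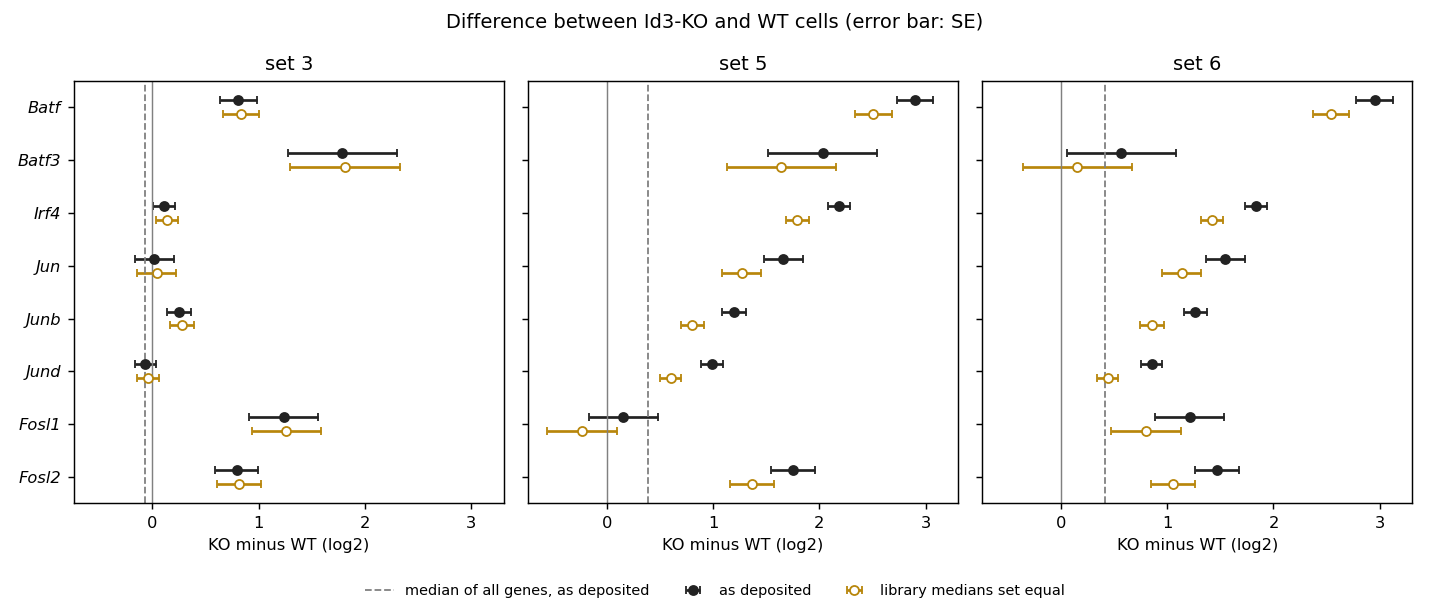
Differences KO minus WT of the 8 genes in sets 3, 5 and 6. The x axis is the log2 difference, filled points are deposited values, open points are values with library medians set equal, bars are SEs, and the dashed line is the median of all genes. Batf and Irf4 lie farthest from that line in sets 5 and 6, together with Batf3 in set 5.

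The set 3 calls were the least secure. Requiring a change of more than 1.2-fold left 0 of the 4, and fitting the set 3 libraries alone left 1 (Batf3). The authors' deposited table called none of the 8 in its set 3 contrast and 7 in each of its KO and WT contrasts for sets 5 and 6. With 491 genes called in set 3, where the 1.2-fold requirement called 492, it is not a separate check from that requirement. Other cell types' markers moved with genotype in set 3, where 6.92% of all genes were called higher and 4.46% lower. Of the B and plasma cell markers 6 of 9 were higher in KO cells, with summed levels of 11.51, 8.64 and 9.60 in KO and 6.65, 7.31 and 7.81 in WT libraries. Of the 5 dendritic cell markers measured 4 were higher (12.99, 10.66 and 11.31 in KO against 8.60, 9.27 and 9.63 in WT), and Flt3, Xcr1, Clec9a, Siglech and Cd209a were not in the table. Of the granulocyte and mast cell markers 6 of 7 were higher (9.46 to 9.62 against 5.85 to 6.96). KO replicate 2 had the lowest B cell and dendritic cell sums and the lowest Batf3 and Batf values of the set 3 KO libraries. In sets 5 and 6 it again had the lowest Batf3 value of the KO libraries (7.20 and 7.90). There, however, it had the highest dendritic cell sum of them (10.53 and 11.16). Its B cell sum was the lowest of the KO libraries in set 5 (7.07) but not in set 6 (7.71). The part of these cells in the set 3 results was not tested. In bulk RNA more cells of a type and more RNA per cell cannot be told apart. Among the 9 CD4 T cell markers 4 were lower in KO cells of set 3 and none higher, and their summed level was 15.77 to 15.94 in KO and 16.16 to 16.30 in WT libraries.

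In sets 5 and 6 markers of other cells also moved with genotype. Of the 4 macrophage and monocyte markers measured, 1 was higher in KO cells of set 3 and 2 in each of sets 5 and 6, Cd68 and Adgre1. Csf1r, Cd14, Fcgr1, Mrc1 and Mertk were not in the table, and Lyz2 lay at the bottom of the scale in every library of KO set 6, WT set 5 and WT set 6. Their summed levels did not overlap between the genotypes: 7.20 to 8.72 in KO against 6.25 to 6.96 in WT libraries of set 3, 9.34 to 9.82 against 7.20 to 7.66 in set 5, and 10.27 to 10.50 against 8.40 to 9.33 in set 6. B cell sums were 7.07 to 7.73 in KO against 5.76 to 5.96 in WT in set 5 and 6.99 to 7.87 against 5.97 to 6.58 in set 6, with 1 and 0 of 9 markers called higher. Granulocyte and mast cell sums were lower in KO, 5.05 to 6.75 against 7.57 to 8.02 in set 5 and 6.05 to 6.61 against 7.57 to 7.77 in set 6, and Kit was the 1 marker called lower in each, with Cpa3 called higher in set 6 on deposited values. Dendritic cell sums overlapped in set 5 (9.38 to 10.53 against 10.40 to 10.55) and in set 6 (10.01 to 11.16 against 10.70 to 10.71), with 2 of 5 markers called higher in each. Of 6 NK and CD8 cell markers 3 were called higher in set 5 and 0 in sets 3 and 6. In sets 5 and 6, 50.1% and 53.9% of all genes were called higher, and 24.9% and 18.8% after centring. After centring the markers called higher in sets 5 and 6 were 2 and 0 for dendritic cells and 0 and 0 for B cells. They were 1 and 0 for NK and CD8 cells, and stayed at 2 and 2 for macrophages and monocytes. Of the CD4 T cell markers 8 of 9 were called higher in each of sets 5 and 6 on deposited values, and 2 and 1 after centring. The part of these cells in the results of sets 5 and 6 was not tested.

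Part of the counts could come from neighbouring genes. The annotation places Junb opposite Prdx2, Fosl1 opposite Ccdc85b, Jun opposite Junos and Jund opposite Gm11175, and the sources used here do not state whether counting used strand. Prdx2 differed by -0.24, 0.05 and 0.36 in sets 3, 5 and 6, and Ccdc85b by -0.30, 0.24 and 0.17, while Junos and Gm11175 were not in the table.

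Comparing the KO effect between sets tests whether the difference between genotypes itself differed. For Batf, Irf4, Jun, Junb and Jund the KO effect was larger in set 5 than in set 3, and again in set 6 than in set 3, on both scales. Relative to set 3 the Batf effect was 2.09 larger in set 5 (SE 0.24, adjusted p = 6.28e-06, centred 1.67) and 2.14 larger in set 6 (adjusted p = 8.45e-06, centred 1.70). The Irf4 effect was 2.07 larger in set 5 (SE 0.15, adjusted p = 3.51e-07, centred 1.66) and 1.72 larger in set 6. That of Jun was 1.64 and 1.53 larger, that of Junb 0.95 and 1.02, and that of Jund 1.06 and 0.92. For Fosl2 it was 0.96 larger in set 5 (adjusted p = 0.0122), a call lost after centring (0.55, adjusted p = 0.156), and 0.68 larger in set 6 (adjusted p = 0.0646). In set 5, 6 of the 8 had a larger effect than in set 3 (43.2% of all genes), or 5 after centring (18.7%), and in set 6, 5 did (46.2%), also 5 after centring (12.7%). These contrasts share the set 3 libraries. The Batf3 effect passed in neither, at 0.25 for set 5 (adjusted p = 0.802) and -1.22 for set 6 (adjusted p = 0.177). The Fosl1 effect was lower in set 5 than in set 3 by the centred values only (-1.49, adjusted p = 0.0185, 18.5% of all genes called lower, against -1.07, adjusted p = 0.0623 as deposited). Between sets 6 and 5 limma called the KO effect different for none of the 8 and for 0 genes in all. At an unadjusted p under 0.05 there were 1320 genes, among them Fosl1 (larger in set 6) and Irf4 (smaller).

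The levels across sets within a genotype show what lay behind this. In WT cells Batf was lower in set 5 than in set 3, by -1.19 (SE 0.17, adjusted p = 1.27e-05), whereas in KO cells it was higher, by 0.90 as deposited and 0.51 (adjusted p = 0.0135) after centring. Irf4 was lower in set 5 in both genotypes, by -3.59 (SE 0.10, adjusted p = 2.74e-12) in WT and -1.51 (SE 0.10) in KO cells. Jun was higher in set 5 in both, by 2.30 (SE 0.18) in WT and 3.94 (SE 0.18) in KO cells, where it ranked 121 of 12547 genes. Junb was higher by 0.82 in WT and 1.77 in KO cells, Jund by 0.27 and 1.32, and Fosl2 by 0.76 and 1.72. Batf3 was lower by -1.88 in WT and -1.63 in KO cells, and Fosl1 by -1.52 in KO cells, with -0.45 (adjusted p = 0.237) in WT. In WT cells 4 of the 8 were higher and 3 lower in set 5, where 29.3% and 38.3% of all genes were, and the counts were the same after centring (30.5% and 36.8%). In KO cells 5 were higher and 3 lower (49.8% and 23.4% of all genes, 35.6% and 35.7% after centring). Of these calls, that of Jund in WT cells was lost without WT replicate 1 or 2 of set 3 or WT replicate 2 of set 5 (0.17 to 0.42 over the libraries left out, adjusted p up to 0.165). That of Batf3 in KO cells was lost without KO replicate 2 of set 5 (adjusted p = 0.0634). Markers of other cells also differed between these sets, in both directions in WT cells. There 4 of 9 B cell markers were lower in set 5 and 1 higher, 4 of 5 dendritic cell markers lower and 1 higher (H2-Ab1, by 2.75), 6 of 6 NK and CD8 cell markers lower, 1 of 4 macrophage markers lower and 1 higher, and 1 of 7 granulocyte and mast cell markers higher. In WT cells the summed levels were higher in set 5 for dendritic cells (10.40 to 10.55 against 8.60 to 9.63), granulocytes and mast cells (7.57 to 8.02 against 5.85 to 6.96) and macrophages (7.20 to 7.66 against 6.25 to 6.96). In KO cells 6 of 9 B cell, 4 of 5 dendritic cell, 4 of 6 NK and CD8 cell and 7 of 7 granulocyte and mast cell markers were lower and none higher, and 2 of 4 macrophage markers were lower and 2 higher. Their part in these differences was not tested.

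**Figure D4:**
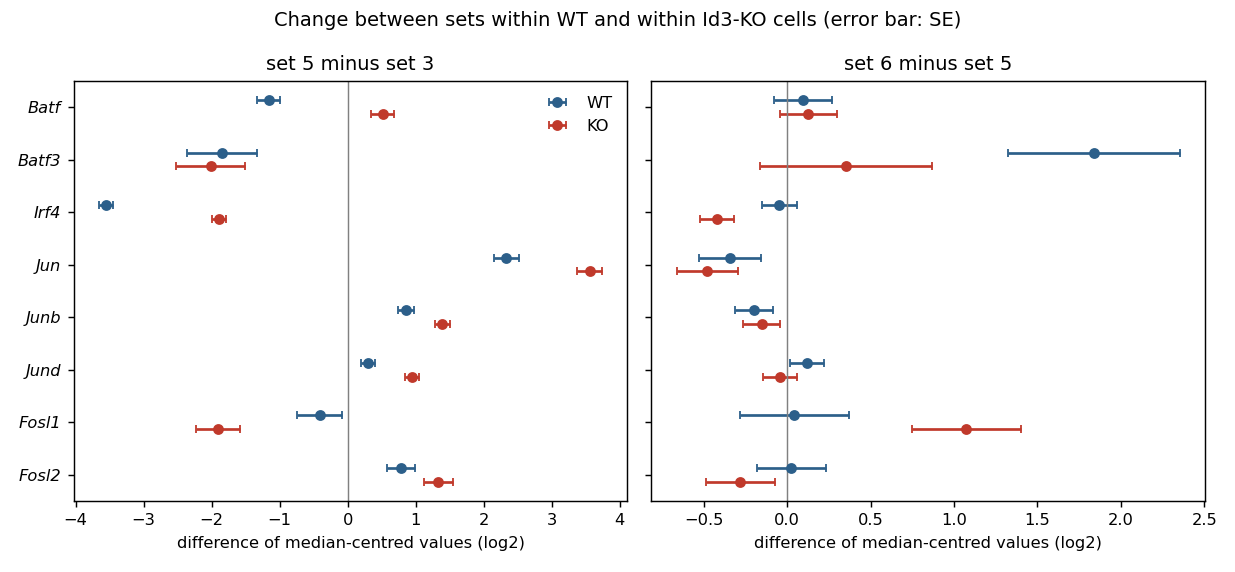
Differences between sets within WT (blue) and KO (red) cells. The x axes, which differ in range, give the difference of median-centred log2 values, and bars are SEs. Between sets 5 and 3 Batf lies on opposite sides of 0 in WT and KO cells, and Irf4 is lower in both.

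Few of these genes passed the test between sets 6 and 5. In WT cells none of the 8 was called (3.01% of all genes were higher and 0.359% lower, 1.49% and 0.566% after centring). At an unadjusted p under 0.05 limma gave 1 of the 8, Batf3, where it gave 2249 of all 12547 genes in either direction. Batf3 was higher in set 6 by 1.91 (adjusted p = 0.0528). It passed with the replicate numbers of sets 5 and 6 as a block (adjusted p = 0.0197). That block was chosen after seeing the data. In KO cells Fosl1 was higher in set 6 by 1.17 (adjusted p = 0.0305, 9.93% of all genes called higher), a call lost after centring (adjusted p = 0.0549, 3.87%). Irf4 was -0.32 in KO cells (adjusted p = 0.054, 2.03% of all genes called lower), which passed after centring (-0.42, adjusted p = 0.0239, 3.64%) and with the block (adjusted p = 0.0408).

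After centring, the order of the 6 groups differed between genes. For Batf it ran KO set 6, KO set 5, KO set 3, WT set 3, WT set 6 and WT set 5, with means of 3.95, 3.83, 3.31, 2.48, 1.41 and 1.32 above the library median. The neighbours KO set 6 and KO set 5, and WT set 6 and WT set 5, did not pass the test. For Irf4 it ran KO set 3 (4.66), WT set 3 (4.53), KO set 5 (2.77), KO set 6 (2.35), WT set 5 (0.97) and WT set 6 (0.92), and neither the set 3 pair nor the pair of WT sets passed. Jun and Junb had a common order, from KO set 5 and KO set 6 through WT set 5 and WT set 6 to KO set 3 and WT set 3, in which neither the last pair nor the pairs of sets 5 and 6 within a genotype passed for either gene. For Jund it ran KO set 5 (5.36), KO set 6 (5.32), WT set 6 (4.88), WT set 5 (4.76), WT set 3 (4.46) and KO set 3 (4.42). Neither the set 3 pair nor the pairs of sets 5 and 6 within a genotype passed for Jund. Fosl2 was highest in KO set 5 (1.94) and KO set 6 (1.66), a pair that did not pass. Its values in KO set 3, WT set 6 and WT set 5 lay together at 0.60, 0.60 and 0.58.

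Across the 18 libraries the centred values of Jun, Junb and Jund varied together, with Pearson correlations of 0.93 to 0.95. Junb and Fosl2 had 0.94, Irf4 and Jun -0.66, Batf and Irf4 0.52, and Batf and Jun 0.22. These describe libraries that share 6 groups, so no p is given. By the same measure the genes most like each member were Gata3 (0.98) and Efna5 (0.97) for Batf, Klrc1 (0.96) and Zbtb32 (0.93) for Batf3, and Ctdp1 (0.99) and Miga1 (0.98) for Irf4. For Jun they were S100a13 and Plgrkt (both 0.99), for Junb Wsb1 and Cntrl (both 0.99), for Jund Wdr81 and Ppt1 (both 0.97), for Fosl2 Igsf23 (0.98) and Tent5c (0.97), and for Fosl1 D13Ertd608e (0.89) and Il1a (0.87).

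Other genes of the same pathways were counted from lists, with counts after centring in brackets. The lists were chosen with earlier results of these data known, so the counts are descriptions. A gene given for 1 set may also have been called in another. They are read against the share of all genes called higher, 6.92%, 50.1% and 53.9% in sets 3, 5 and 6 (7.29%, 24.9% and 18.8% after centring), and lower, 4.46%, 8.08% and 4.59% (3.28%, 24.7% and 18.5%). Of 14 other AP-1 and bZIP factor genes, 5 were higher and 1 lower in KO cells of set 3 (6 and 1), 11 and 1 in set 5 (9 and 1), and 11 and 1 in set 6 (8 and 2). Maf, which drives IL4, IL10 and IL21, was higher by 2.25 in set 3 (SE 0.39) and 3.67 in set 5 (SE 0.39). Jdp2, which encodes a repressive partner of JUN, was higher by 1.92 in set 3 and 2.86 in set 6, and Fos by 0.73 in set 3. Mafg was higher by 0.88 in set 5 and 0.68 in set 6, and Mafk by 0.71 and 0.69. Bach1 was higher by 0.90 in set 5 and, on deposited values only, by 0.61 in set 6. Bach2, a repressor that competes at AP-1 sites, was lower by -0.70 in set 3 and higher by 0.89 in set 5. Nfe2l2, the regulator of the oxidative stress response, was lower by -0.57 in set 5 and -0.81 in set 6. The list's median difference was 0.34, 0.89 and 0.68 in sets 3, 5 and 6.

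Of 8 other IRF genes, 1 was higher in set 3, Irf5 (1.56, SE 0.35). In set 5, 5 were higher and 1 lower (3 and 2 after centring), and in set 6, 4 and 1 (2 and 1), where 50.1% and 53.9% of all genes were higher (24.9% and 18.8% after centring). Irf1, an interferon-induced factor of Th1 cells, was higher by 1.96 in set 5 and 1.89 in set 6, Irf9, a part of the type I interferon signalling complex, by 1.51 and 1.36. Of 3 genes of IRF2-binding proteins, which are not IRFs themselves, 2 were higher in each of these sets, among them Irf2bp2 by 1.49 and 1.18. Irf8, the relative of Irf4 that also forms complexes with BATF, was lower by -0.87 (SE 0.17) in set 5 and -1.04 (SE 0.17) in set 6. In these sets Irf4 was higher and Irf8 lower in KO cells, on both scales.

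Of 25 genes of the signalling that leads from the T cell receptor to AP-1 and Irf4, 1 was higher and 3 lower in KO cells of set 3, 23 and 0 were in set 5, and 22 and 0 in set 6. After centring the counts were 14 and 3 in set 5 and 7 and 3 in set 6, where 24.9% and 18.8% of all genes were higher and 24.7% and 18.5% lower. The deposited counts stand beside 50.1% and 53.9% of all genes. In set 3 Nfkb1 was higher by 0.41, and Mapk8, which encodes the kinase JNK1, was lower by -0.59. Prkcq, the gene of PKC theta, was higher by 1.43 in set 5 (SE 0.11, centred 1.04). Rela was higher by 1.08 in set 5 and 0.91 in set 6, Elk1 by 1.13 in set 5, and Srf by 0.80 and Map2k2 by 0.62 in set 6.

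Of 7 genes of ubiquitin ligases that act on JUN proteins and their adaptors, 1 was higher and 1 lower in set 3, 6 and 0 in set 5, and 5 and 0 in set 6, with 3 and 0 and then 1 and 1 after centring. The shares of all genes called higher were 50.1% and 53.9% in sets 5 and 6, and 24.9% and 18.8% after centring. Nedd4 was higher by 1.26 and Fbxw7 lower by -0.47 in set 3. Ndfip1, an adaptor of the ligase ITCH, was higher by 0.72 in set 5 and 0.81 in set 6 (centred 0.33 and 0.39). Fbxw7 was higher by 0.85 in set 5. Ndfip2 (0.53 and 0.41) and Cop1 (0.32 in set 6) were called on deposited values only.

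Of 22 genes known as targets of BATF and IRF4 in T cells, 13 were higher and 0 lower in KO cells of set 3, 14 and 2 in set 5, and 14 and 1 in set 6 (11 and 2, and 12 and 1, after centring). Of all genes 6.92%, 50.1% and 53.9% were higher in these sets, and 24.9% and 18.8% after centring in sets 5 and 6. The list's median difference was 1.57, 1.82 and 1.56. This list too was chosen with earlier results of these data known, so its counts are a description and no independent test. In set 3 Il4, the signature cytokine gene of Th2 cells, was 10.93 in KO and 6.22 in WT cells (difference 4.71, SE 0.46), Il17f was 10.44 against 6.33, and Gata3, the Th2 master regulator, was higher by 0.73. In set 5 Il21, a cytokine of follicular helper cells, was 11.73 against 5.74, Gata3 was higher by 2.52 (SE 0.11) and Ikzf3 by 2.82. In set 6 Gata3 was higher by 2.40 and Ikzf3 by 2.77, and Il17a was 8.96 against 2.31. Bcl6, the follicular helper regulator, was lower by -1.66 in set 5 and -1.72 in set 6, and Ccr6 was 1.19 in KO and 2.79 in WT cells of set 5, values near the bottom of the scale. Mast cells and granulocytes also make Il4, and with their markers higher in KO cells of set 3 their part in the Il4 difference was not tested.

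**Figure D5:**
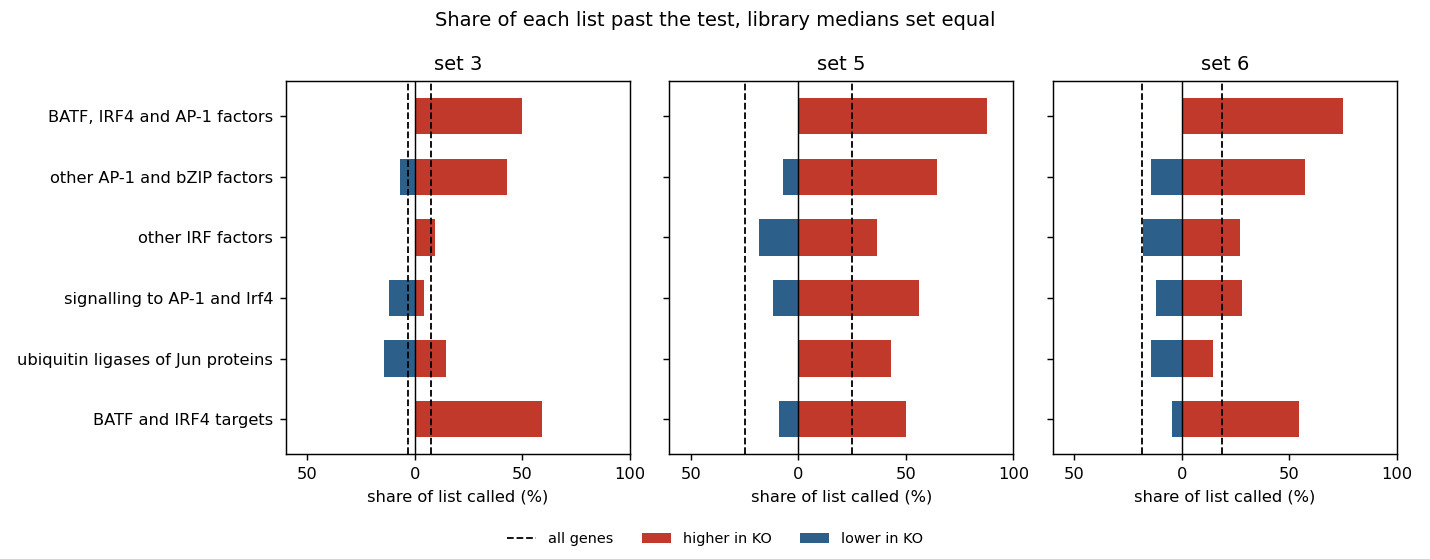
Share of each gene list that passed the test in KO against WT cells after library medians were set equal. The x axis is the percentage of measured genes called, to the right (red) higher and to the left (blue) lower in KO, and dashed lines give the same for all genes. The row of other IRF factors includes the genes of IRF2-binding proteins. The 8 factors and the targets extend farthest to the right in set 3, and the 8 factors do so in sets 5 and 6.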

How the data were processed

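Salmon 1.9.0, limma, edgeR and build GRCm39 are named without roles, per the submitters' processing notes. The main deposited table holds log2 values of counts, and the sources used here do not state how they were normalized. A second deposited table holds the authors' contrasts, with log2 fold changes, p-values before and after adjustment and a test score, as the authors' file headers name them. Its fold changes matched the group mean differences used here within 8.4e-14.

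One linear model with 6 group means was fitted to all 18 libraries and 12547 genes with limma 3.58.1 in R 4.3.3 (moderated test, variance trend, 12 residual degrees of freedom). Calls used a Benjamini-Hochberg adjusted p under 0.05 over all genes, and the code was tested on simulated data. Intervals are 95%. The 8 genes and the lists were chosen with earlier results of these data known. All 8 were tested in each comparison, though not every value is given here. From each list up to 3 called genes per direction and set with the smallest adjusted p were named (some are not reported here), and for each of the 8 genes the 2 named genes with the highest correlation. Summed marker levels are log2 of the sum on the linear scale.

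Within a set, equal replicate numbers did not pair KO with WT (correlations of deviations from -0.08 to 0.18). Between sets 5 and 6 they did, with 0.22 to 0.34 in KO cells and 0.12 to 0.16 in WT cells, which rests on the values and not on the labels. Between set 3 and the later sets equal numbers gave weaker correlations, 0.01 to 0.18 in KO and 0.04 to 0.07 in WT cells. Unequal numbers gave -0.15 to 0.06 and -0.06 to 0.01. With blocks within a genotype, chosen after seeing the data, all 16 differences of set 5 against set 3 kept direction and call. The interactions with set 3 were not refitted this way. A low-value filter (log2 of 2 or more in 3 libraries) removed no gene. Depth per library is unknown.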

Additional observations from a re-analysis of the deposited data

Results flagged for a closer look

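On deposited values the KO effect (KO minus WT, log2) of these genes differed between sets by the interaction test of limma in 11 cases. In all 11 it was larger than in set 3. Of all genes 43.2% had a larger effect in set 5 than in set 3, and 46.2% in set 6 (18.7% and 12.7% after centring). In set 5 the effect exceeded that of set 3 by 2.09 for Batf, 2.07 for Irf4, 1.64 for Jun, 0.95 for Junb, 1.06 for Jund and 0.96 for Fosl2. In set 6 it exceeded that of set 3 by 2.14 for Batf, 1.72 for Irf4, 1.53 for Jun, 1.02 for Junb and 0.92 for Jund. After centring 10 of the 11 remained past the test, with Fosl2 as the exception (0.55, adjusted p = 0.156). Centring also brought in a call the other way, Fosl1 in set 5 (-1.49, adjusted p = 0.0185), where 18.5% of all genes were called lower. Both comparisons use the same set 3 libraries, so they are not independent of each other.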

How the results depend on the processing

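The alternatives were median centring, quantile normalization, the replicate number as a block, a minimum fold of 1.2, 1 added on the linear scale, a low-value filter, no variance trend, the compared groups alone, and leaving out each library. Chosen after seeing the data were blocks within a genotype or over sets 5 and 6, and centring with the minimum fold. For KO against WT, set 3 had 1427 genes called, 492 with the minimum fold, 513 with centring and the minimum fold, 379 with the compared groups alone, and 666 to 1914 without 1 library. Its 4 members called higher became 0 with the minimum fold (0 with centring as well), 1 with the compared groups alone and 1 to 5 without 1 library. Set 5 had 7299 genes called, 4743 with the minimum fold and 3046 with centring as well. Set 6 had 7336, with 4669 under centring, 4723 under quantile normalization, 4419 with the minimum fold and 1763 with centring as well. The mean over sets had 7964, with 3522 under the minimum fold and 2126 with centring as well. For the KO effect, set 5 minus set 3 had 6276 genes called and 2270 with centring and the minimum fold, and members called lower went from 0 to 1 (Fosl1) under centring and under quantile normalization (0 to 1 without 1 library). Set 6 minus set 3 had 6314, with 3022 under centring, 3076 under quantile normalization, 3787 with the minimum fold and 1071 with centring as well, where 3 members passed against 5. Set 6 minus set 5 had 0 genes called by limma, 0 to 1 without 1 library and 1320 at an unadjusted p under 0.05. Between WT sets 6 and 5 there were 423 genes called, 258 under centring, 226 under quantile normalization, 667 with the replicate block of sets 5 and 6, 87 with the minimum fold (64 with centring), 643 with the compared groups alone and 113 to 385 without 1 library. Its members called higher went from 0 to 1 with the block (0 to 1 without 1 library) and lower from 0 to 1 with the compared groups alone. Between KO sets 6 and 5 there were 1501, with 943 under centring, 931 under quantile normalization, 75 with the minimum fold (46 with centring), 519 with the compared groups alone and 589 to 1647 without 1 library. Its 1 member called higher became 0 under centring, quantile normalization, the minimum fold, both together and the compared groups alone (0 to 1 without 1 library), and members called lower went from 0 to 1 under centring, quantile normalization, the block and the compared groups alone. The cause of these shifts was not tested.

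Differences that changed direction were all of genes that had not passed the test. Under quantile normalization Jund in KO against WT of set 3 became 0.0068, Batf in the KO effect of set 6 minus set 5 became -0.0093, and Fosl1 between WT sets 6 and 5 became -0.060. Fosl1 in KO against WT of set 5 became -0.23 under centring, with or without the minimum fold, and -0.36 under quantile normalization. Batf3 in the KO effect of set 5 minus set 3 became -0.17 and -0.22 in the same way, Irf4 between WT sets 6 and 5 became -0.048 and -0.041, and Jund between KO sets 6 and 5 became -0.043 and -0.041. Without 1 library, KO minus WT in set 3 ran from -0.15 to 0.30 for Jun and -0.16 to 0.088 for Jund, and in set 5 from -0.056 to 0.32 for Fosl1. The KO effect ran from -0.30 to 0.84 for Batf3 (set 5 minus set 3), -0.37 to 0.29 for Fosl1 (set 6 minus set 3), and for set 6 minus set 5 from -0.10 to 0.22 for Batf, -0.27 to 0.034 for Jun and -0.016 to 0.15 for Junb. Between WT sets 6 and 5 it was -0.10 to 0.13 for Irf4, -0.098 to 0.28 for Fosl1 and -0.064 to 0.23 for Fosl2, and between KO sets -0.064 to 0.84 for Batf3 and -0.097 to 0.022 for Junb. With the planned replicate block, which paired KO with WT within a set, 46 of 48 differences kept their direction and call. The others were Batf3 in KO against WT of set 3 (1.78, adjusted p = 0.088, lost) and Fosl2 in the KO effect of set 6 minus set 3 (0.68, adjusted p = 0.0362, gained). In sets 5 and 6 the KO against WT calls of Batf, Irf4, Jun, Junb, Jund and Fosl2 held in 179 of 180 refits, the exception being Jund in set 6 with centring and the minimum fold (0.44, adjusted p = 0.207). The 180 include those with the low-value filter, which removed no gene, so these repeat the main fit.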
